A study of Rattus norvegicus with 6 samples.

Results

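Adrenergic signalling in the left ventricle was followed through 9 genes, which were Adrb1, Adrb3, Adra1a, Adra1b, Adra1d, Gnas, Adcy5, Adcy6 and Adrbk1. They were found by gene name among the 26456 names on a rat expression array, where 10 probes carried these names, and the set was put together with earlier results of these data known. Of the 9 genes 8 gave enough signal to be tested, among 18816 genes tested in all. The 3 OLETF arrays were compared with the 3 LETO arrays. The OLETF rat is an inbred strain that becomes obese and develops type 2 diabetes, and the LETO rat is its non-diabetic control strain, labelled as healthy. All 6 rats were male. Those of OLETF 1, OLETF 3 and LETO 1 were 27 weeks old, and those of OLETF 2, LETO 2 and LETO 3 were 28 weeks old. The titles of all 6 samples carry the tag ExVivoLV, and no treatment beyond this tag is named in the labels. Strain and diabetes cannot be told apart in this design, since every diabetic rat was an OLETF and every control a LETO. Each array held labelled RNA of 1 ventricle, and a p-value here is set against the spread between these rats.

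Noradrenaline from sympathetic nerves and adrenaline from the adrenal gland raise the rate and force of the heartbeat through adrenergic receptors. The beta receptors act mainly through the stimulatory G protein, whose alpha subunit Gnas turns on adenylyl cyclase, and the cyclic AMP made by the cyclase turns on protein kinase A. The alpha1 receptors act through the Gq protein and phospholipase C instead, and are known in the heart for effects on growth and in vessels for constriction. Adrbk1, now named Grk2 in the RefSeq table, is the kinase that phosphorylates active beta receptors and so quenches them. Loss of beta1 receptors and more of this kinase are well known in failing hearts.

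On each array a single probe of 60 bases stood for most of these genes. The sequences of 3 of them are given to show how short the stretch is on which the value of each gene rests. Adrb1 is shown as the main beta receptor of the ventricle, Adra1a as an alpha1 receptor and Adrbk1 as the receptor kinase. Capitals mark a TAG stop triplet that closes the Adrb1 probe, in frame with its first base. Positions follow the array files, which use rn4, and exons and untranslated regions were not assigned, since no annotation of that build was used.
Adrb1, chr1:263026996-263027055, plus strand: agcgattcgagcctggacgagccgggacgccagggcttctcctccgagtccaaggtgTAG
Adra1a, chr15:46263114-46263173, plus strand: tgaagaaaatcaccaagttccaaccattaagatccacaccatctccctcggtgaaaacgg
Adrbk1, chr1:206873729-206873788, minus strand: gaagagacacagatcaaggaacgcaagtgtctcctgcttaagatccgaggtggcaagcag

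Levels are given as log2 of the processed spot signal over the 75th percentile of its array, so that 0 is the brightness of a probe at that percentile, and differences are OLETF minus LETO on this scale. A brighter probe binds its target better or meets more of it, so levels were compared between arrays. Between probes, brightness served to choose the probe of a gene and to describe summed marker signals, and was not read as an amount of RNA. Between 75.5% and 79.8% of the spots of an array were well above background, and 0 were saturated. The first principal component, with 42.9% of the variance, separated the strains, and the second, with 23.8%, set LETO 1 apart, whose array quality weight of 0.205 was the lowest. OLETF 1 shared its slide with the 3 LETO arrays, while a second slide held the other OLETF arrays, so a value with slide as a block equals that of OLETF 1 against the 3 LETO arrays. All 7 cardiomyocyte markers were above background on all arrays, and so were 4 of 4 atrial markers. Of 7 adipocyte markers 2 were above background on all arrays and Plin and Cidec on none, and of the 2 of brown fat Cidea was on all and Ucp1 on none. The lymphocyte markers Cd3g and Nkg7 fell in OLETF, by 0.96 and 0.84 on the log2 scale (adjusted p = 0.0178 and 0.022). In the other marker lists the only call was 1 erythroid marker, which rose, while 2 further erythroid markers were negative. The part of either cell type in the results was not tested. In whole tissue, fewer cells of a type and less RNA per cell cannot be told apart.

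None of the 8 tested genes passed an adjusted p of 0.05 in the limma fit across all genes, while 480 of the 18816 genes did, which is 2.55%. An unadjusted p below 0.05 was reached by 2 of the 8, Adrb1 and Adcy5, against 12.4% of all genes. The OLETF and LETO arrays did not overlap for 1 of the 8, Adcy5, against 17.4% of all genes. The difference was positive for 5 genes and negative for 3, with a median of 0.042, against −0.0084 over all genes. The median size of the difference without its sign was 0.15 for the 8 genes and 0.098 for all genes.

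**Figure D1:**
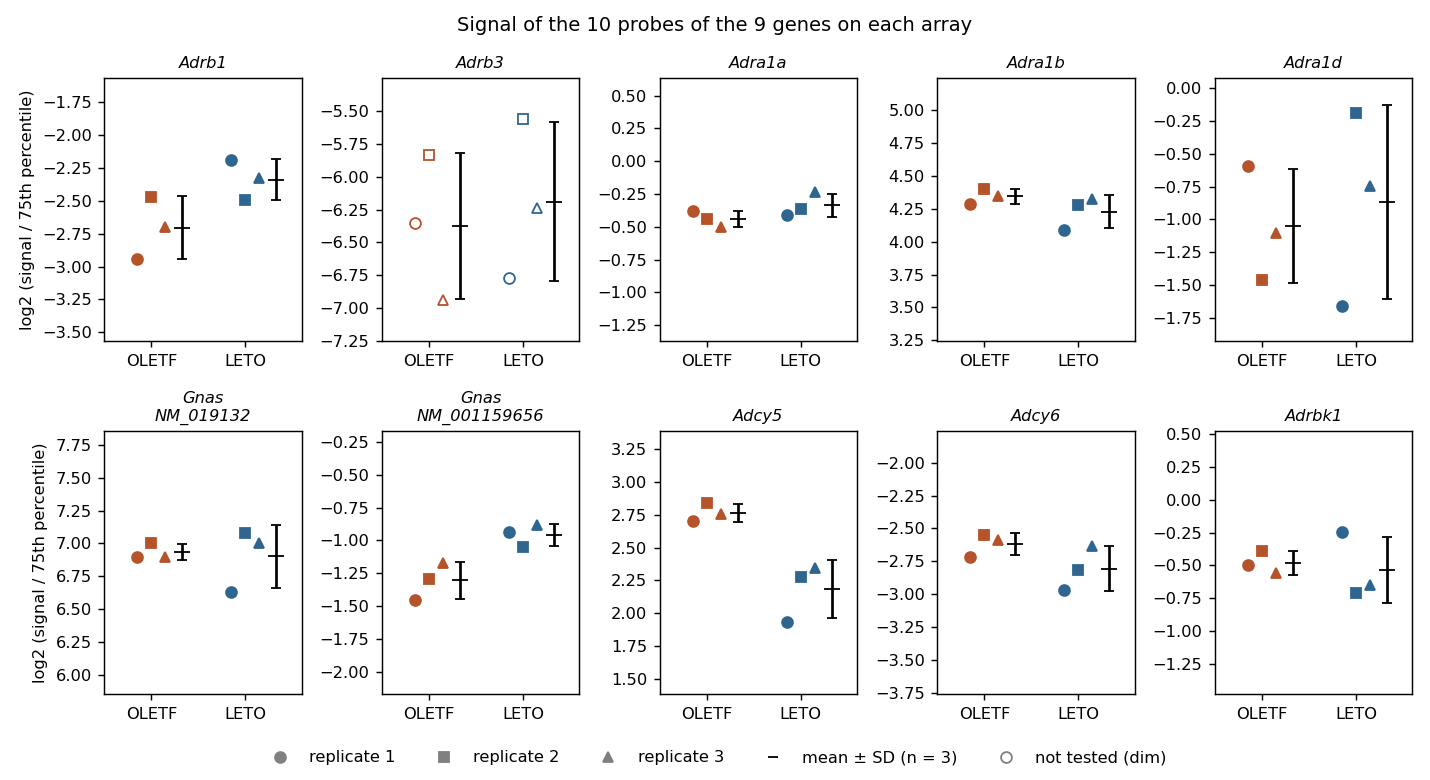
Level of each of the 10 probes on every array, as log2 of signal over the 75th percentile of the array, with OLETF on the left and LETO on the right of each panel; every panel spans 2 units, mark shapes are replicates 1 to 3, bars are mean ± SD (n = 3) and open marks are a probe too dim to test. The Adcy5 marks of OLETF, between 2.70 and 2.84, all lie above those of LETO, between 1.93 and 2.34, whereas the Adra1d marks of the strains spread over each other.

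Adrb1, the beta1 receptor, through which noradrenaline mainly drives the ventricle, had levels of −2.94, −2.47 and −2.70 on OLETF arrays 1 to 3, against −2.19, −2.49 and −2.33 on LETO arrays 1 to 3. OLETF 2 lay within the LETO range, just above LETO 2, and the other OLETF arrays lay below all LETO arrays. The means were −2.70 ± 0.24 in OLETF and −2.34 ± 0.15 in LETO (SD, n = 3 each). The difference was −0.37 ± 0.14 (SE), a ratio of 0.776, with a 95% interval of −0.71 to −0.025 and an unadjusted p of 0.0388. With adjustment over all genes p was 0.358, so Adrb1 did not pass the test. The difference was negative under each of 18 alternative settings and never called, with values between −0.61 and −0.23 and adjusted p between 0.253 and 0.71. Slide as a block gave the −0.61, the value furthest from 0.

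Adrb3, the beta3 receptor, best known from fat cells, could not be tested. Its probe, at chr16:69166311-69166370 on the plus strand, was above background on 0 of 3 OLETF arrays and on 1 of 3 LETO arrays, LETO 2. The values were −6.35, −5.83 and −6.94 in OLETF and −6.77, −5.56 and −6.24 in LETO, which is at the floor of the arrays. No fold was formed.

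Adra1a encodes the alpha1A receptor, and its levels were −0.38, −0.44 and −0.50 in OLETF, against −0.41, −0.36 and −0.24 in LETO. The arrays of the strains overlapped within a narrow band. The difference of −0.10 ± 0.089 (SE) had an interval of −0.31 to 0.11 and an adjusted p of 0.796. Adra1b, the alpha1B receptor, with a probe at chr10:28889094-28889153 on the minus strand, had levels of 4.29, 4.40 and 4.35 in OLETF and 4.09, 4.28 and 4.33 in LETO. OLETF 1 lay among the LETO arrays and LETO 1 was the lowest of the 6. The difference of 0.11 ± 0.096 (SE) had an interval of −0.11 to 0.34 and an adjusted p of 0.788. As ratios the intervals were 0.805 to 1.08 for Adra1a and 0.925 to 1.27 for Adra1b.

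Adra1d, the alpha1D receptor, known mainly from the smooth muscle of vessels, was the most uneven of the 8 genes from rat to rat. Its probe, at chr3:119280059-119280118 on the minus strand, was spotted 10 times on every array. The levels were −0.59, −1.46 and −1.10 in OLETF and −1.66, −0.19 and −0.75 in LETO. The lowest and the highest array were both LETO. The repeat spots of an array lay close together, with an SD between 0.030 and 0.15, while the SD between rats was 0.43 in OLETF and 0.74 in LETO. The difference of −0.19 ± 0.38 (SE) had an interval of −1.09 to 0.71 and an adjusted p of 0.948. Its sign turned without LETO 2, where it was 0.15, without OLETF 2, where it was 0.018, and with slide as a block, where it was 0.27.

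**Figure D2:**
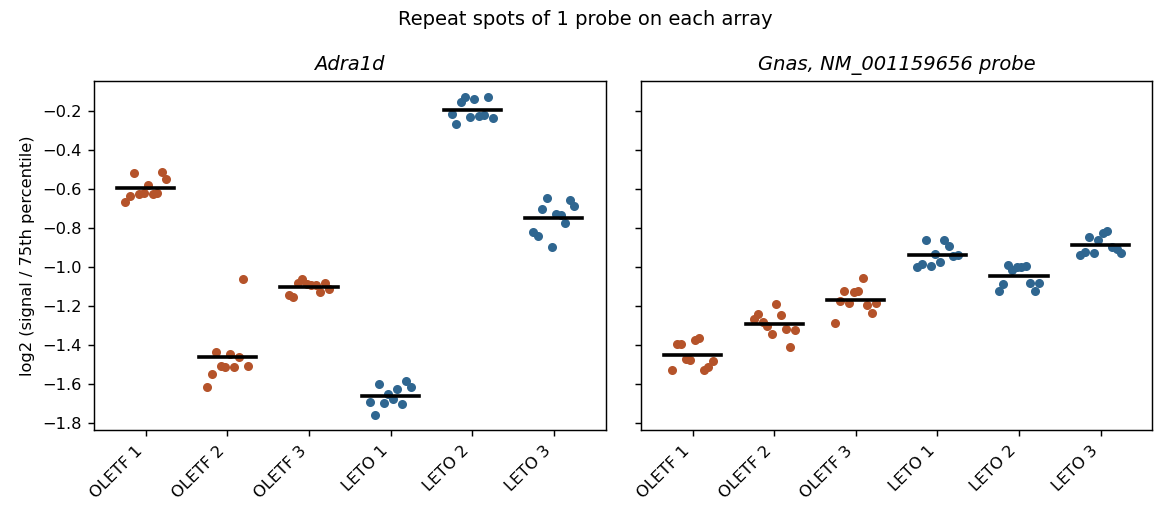
Every repeat spot of the Adra1d probe (left) and of the Gnas probe designed on NM_001159656 (right) on each array, as log2 of signal over the 75th percentile of the array, with OLETF left of LETO and the mean of the 10 spots as a line. For Adra1d the means run between −1.46 and −0.59 in OLETF and between −1.66 and −0.19 in LETO, far apart beside the scatter of spots within an array; for Gnas the 3 OLETF means lie below the 3 LETO means.

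Markers of other cells were set beside Adra1d, and those shown were chosen after their values were seen. Sln, a calcium pump regulator typical of atrial muscle, had 1.25, −4.05 and −1.77 in OLETF and −4.04, 1.68 and −0.23 in LETO. Myl7, the atrial regulatory myosin light chain, had 3.85, −0.72 and −0.57 in OLETF and 2.96, 5.15 and 0.54 in LETO. For Adra1d, Sln and Myl7 alike, LETO 2 was the highest array and OLETF 1 the next. The lowest pair was LETO 1 and OLETF 2 for Adra1d and for Sln, whereas Myl7 was higher on LETO 1 than on LETO 3. Of the other atrial markers, Nppa had 2.28, 2.71 and 2.85 in OLETF and 4.00, 2.66 and 2.08 in LETO. LETO 1 was its highest array and LETO 3 its lowest, followed by OLETF 1. Myl4 stayed between 6.94 and 7.13 on all arrays. The summed signal of the 4 atrial markers, as log2, lay between 7.03 and 7.23 in OLETF and between 7.20 and 7.50 in LETO, and 0 of the 4 were called. Myl4 made up most of this sum, which therefore says little of Sln and Myl7. Myh11, the smooth muscle myosin heavy chain, had −0.0033, 0.60 and 0.29 in OLETF and 0.27, 1.66 and 1.34 in LETO. Among the LETO arrays its order was that of Adra1d, and among the OLETF arrays it was the reverse. Acta2, Tagln and Actg2 had the same order as Myh11 within each strain. Smtn, another smooth muscle gene, differed, as it was highest on LETO 1 and lowest on LETO 2 among the LETO arrays. The summed signal of the 6 smooth muscle markers, as log2, lay between 4.20 and 4.41 in OLETF and between 4.31 and 4.47 in LETO, and the 5 that were tested gave 0 calls. Smtn, between 3.78 and 4.09, made up most of this sum. Of the 5 tested, Smtn was positive, at 0.055, and 4 were negative, with a median of −0.74 over the 5. In the limma fit 2 had an unadjusted p below 0.05, against 12.4% of all genes. The strains did not overlap for 1, Acta2, against 17.4% of all genes. The part of either tissue in the Adra1d values was not tested.

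Gnas encodes the alpha subunit of the stimulatory G protein and had 2 probes, which behaved differently. The brighter, designed on NM_019132 and without a position in the files, stood for the gene. It had 6.89, 7.00 and 6.90 in OLETF and 6.63, 7.08 and 7.00 in LETO. The OLETF arrays lay within the LETO range, which LETO 1 widened downward. The difference of 0.030 ± 0.13 (SE) had an interval of −0.28 to 0.34 and an adjusted p of 0.976. The dimmer probe was designed on NM_001159656, another transcript filed under Gnas, and lies at chr3:165214907-165214966 on the plus strand with 10 spots per array. It had −1.45, −1.29 and −1.17 in OLETF and −0.94, −1.05 and −0.89 in LETO, so that the OLETF arrays all lay below the LETO arrays. Its difference was −0.35 ± 0.10 (SE), a ratio of 0.786, with an interval of −0.59 to −0.10 and an unadjusted p of 0.0124. With adjustment over all 21484 probes p was 0.19, so it did not pass either. Of all probes 2.55% were called and 17.5% had strains that did not overlap. The average of the probes gave −0.16 for Gnas, and a difference between the probes was not tested. Which transcripts of the locus each probe reads was not resolved. The values of the dimmer probe and of the average may therefore not be those of the G protein subunit.

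Adcy5 encodes adenylyl cyclase 5, which together with adenylyl cyclase 6 makes most of the cyclic AMP of heart muscle cells. Its probe lies at chr11:67290990-67291049 on the minus strand. The levels were 2.70, 2.84 and 2.75 in OLETF, against 1.93, 2.28 and 2.34 in LETO. All OLETF arrays lay above all LETO arrays, and LETO 1 was the lowest by a wide margin. The means were 2.76 ± 0.067 in OLETF and 2.18 ± 0.22 in LETO (SD, n = 3 each). The difference of 0.58 ± 0.13 (SE) is a ratio of 1.49, with a 95% interval of 1.22 to 1.83. It had an unadjusted p of 0.00238 and an adjusted p of 0.0719, the lowest of the 8 genes, and missed the threshold.

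The Adcy5 difference was positive under each of the 18 alternatives, between 0.45 and 0.66, with adjusted p between 0.0292 and 0.572. It passed under 4 of them. With normexp background correction and quantile normalization it was 0.54 (adjusted p = 0.0345), with trend and robust estimation of the variance 0.58 (adjusted p = 0.0292), with age as a covariate 0.66 (adjusted p = 0.035) and without LETO 1 0.45 (adjusted p = 0.0456). Within the first slide, OLETF 1 lay 0.52 above the mean of the LETO arrays, and the fit with slide as a block gave an adjusted p of 0.572. No other of the 9 genes passed under any alternative.

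Adcy6, the partner cyclase, had levels of −2.71, −2.55 and −2.58 in OLETF and −2.97, −2.82 and −2.63 in LETO. The order of the arrays resembled that of Adcy5 in that LETO 1 was lowest, but OLETF 1 lay below LETO 3, and the strains overlapped. The difference of 0.19 ± 0.11 (SE) had an interval of −0.075 to 0.45 and an adjusted p of 0.612. The files place 25 bases of its probe, at chr7:137339932-137339956 on the minus strand.

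Adrbk1 had −0.50, −0.39 and −0.56 in OLETF and −0.25, −0.71 and −0.65 in LETO. The OLETF arrays lay between LETO 1 above and LETO 2 and LETO 3 below. The difference of 0.054 ± 0.14 (SE) had an interval of −0.27 to 0.38, which as a ratio is 0.828 to 1.30, and an adjusted p of 0.957. Single arrays moved it on either side of 0, to 0.20 (adjusted p = 0.28) without LETO 1, 0.0069 without OLETF 2, −0.0032 without LETO 3 and −0.033 without LETO 2.

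**Figure D3:**
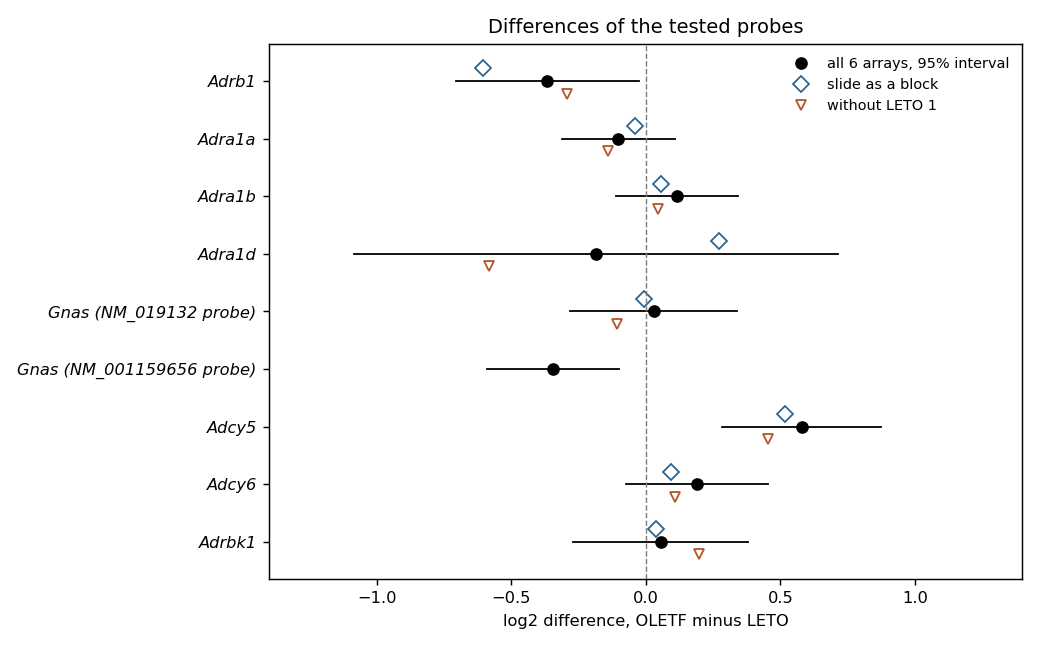
Log2 difference, OLETF minus LETO, of the 9 tested probes, as a point with its 95% interval from the fit on all 6 arrays, with the value under slide as a block (diamonds) and without LETO 1 (triangles) where the probe stands for its gene. Adcy5 at 0.58, Adrb1 at −0.37 and the second Gnas probe at −0.35 have intervals on 1 side of 0, before adjustment, and Adra1d has the widest.

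Around the 9 genes, 161 further genes of the pathway were listed in 12 groups, of which 156 were on the array and 141 were tested. Of these 0 rose and 1 fell, where 1.5% of all genes rose and 1.05% fell. An unadjusted p below 0.05 was reached by 19 of the 141, and for 25 the strains did not overlap, against 12.4% and 17.4% of all genes. These shares of all genes also stand beside the counts of each group below. Their median difference was −0.035, against −0.0084 over all genes, with 63 positive and 78 negative. Over all genes 8949 were positive and 9867 negative. The median was −1.03 for the 10 cyclic AMP-responsive genes, and lay between −0.044 and 0.065 in 10 further groups. Leaving out 1 array gave between 0 and 4 calls, and the 4 came without LETO 1, when Adcy10, Camk2d, Maoa and Ddc passed and Npr3 did not.

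Npr3, the clearance receptor of natriuretic peptides, which can also couple to inhibitory G proteins, was the gene that fell. It had −3.21, −4.13 and −3.39 in OLETF, against −1.89, −2.48 and −2.08 in LETO. All OLETF arrays lay below all LETO arrays. The difference was −1.43 ± 0.26 (SE) with an adjusted p of 0.0406. The call held under 9 of 18 alternatives. It was lost without any single array, with adjusted p between 0.0525 and 0.11, with quantile normalization (adjusted p = 0.0529), with no filter on dim probes (adjusted p = 0.138) and in the fit that blocks on slide, where the difference was −1.06 (adjusted p = 0.456). The 4 other tested receptors that oppose cyclic AMP were not called.

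Among the 6 other adenylyl cyclases tested, 0 were called in the limma fit, 3 had an unadjusted p below 0.05 and for 3 the strains did not overlap. Over all genes these shares were 2.55%, 12.4% and 17.4%. Adcy3 had −5.14, −6.01 and −5.60 in OLETF and −4.59, −4.81 and −4.91 in LETO, a difference of −0.81 (adjusted p = 0.138). Adcy10, the soluble cyclase, which answers to bicarbonate and not to receptors, had −5.04, −4.70 and −4.89 in OLETF and −5.24, −5.59 and −5.76 in LETO, a difference of 0.65 (adjusted p = 0.0991). All 3 cyclases counted here lay in the dim range of the arrays. Adcy3 on OLETF 2 lay below −5.68, the dimmest probe counted as above background on that array. It was tested through its LETO arrays, where it was higher. The filter thus favoured a fall, so its place in these counts is no support for one. Requiring signal on all 6 arrays left Adcy3 out. Adcy10 on LETO 3 was itself the dimmest probe above background on that array. Adcy3 passed without OLETF 1, at −1.03, and with age as a covariate, at −0.96 (adjusted p = 0.0473 in both). It was −0.20 with normexp and quantile normalization and −0.37 with slide as a block. Adcy10 passed without LETO 1, at 0.80 (adjusted p = 0.0351), and with quantile normalization, at 0.66 (adjusted p = 0.0443), and was 0.18 with normexp and quantile normalization.

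The 18 tested subunits of G proteins had a median of 0.019, with 0 calls and 2 genes at an unadjusted p below 0.05. The subunits furthest from 0 were Gnao1, the alpha subunit of Go, at −0.64 (adjusted p = 0.222) and the beta subunit Gnb3 at −0.52 (adjusted p = 0.196), and for both the OLETF arrays lay below the LETO arrays. The 19 genes of protein kinase A and its anchors had a median of 0.019, with 0 calls and 1 at an unadjusted p below 0.05. Prkar1b, a regulatory subunit of the kinase, had 0.66, 0.71 and 0.62 in OLETF and 0.36, 0.15 and 0.32 in LETO, without overlap, and a difference of 0.39 (adjusted p = 0.0953). It passed with normexp and quantile normalization (adjusted p = 0.0377) and with trend and robust estimation (adjusted p = 0.0483). The regulatory subunit Prkar2b differed by −0.24 (adjusted p = 0.429).

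Phosphodiesterases, which break down cyclic nucleotides, had a median of 0.0050 over 15 genes. Pde5a, which degrades cyclic GMP, differed by 0.36 (adjusted p = 0.177) and Pde7b, which degrades cyclic AMP, by 0.31 (adjusted p = 0.221), although another probe of Pde7b gave −0.076. Of 13 genes that silence receptors, the kinases, arrestins and regulators of G protein signalling, Rgs16 stood furthest from 0 at −0.50 (adjusted p = 0.76) and then Rgs2 at −0.37 (adjusted p = 0.512), and without LETO 1 they were at −0.030 and −0.16. With slide as a block Rgs16 was at −0.20. In the Gq arm downstream of the alpha1 receptors, Plcb1, a phospholipase C, had 0.27 (adjusted p = 0.481), which fitting the slide as a block took to 0.085. The protein kinase C gene Prkcd had 0.23 (adjusted p = 0.901), which was 0.014 without LETO 2 and turned to −0.25 with slide as a block. These 3 groups held 0 called genes, and an unadjusted p below 0.05 was reached by 2 phosphodiesterases and by 0 genes of the other groups.

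Targets of protein kinase A in heart muscle cells were negative for 13 of 17 genes, where 9867 of all 18816 genes were negative. Their median was −0.036, against −0.0084 over all genes, with 0 calls and 0 genes at an unadjusted p below 0.05. Cacna1c, the pore of the L-type calcium channel, had −0.29 (adjusted p = 0.462) with the brighter of its probes and 0.049 with the other. Ppp1r1a, an inhibitor of protein phosphatase 1, had 0.24 (adjusted p = 0.758), and 0.040 without LETO 1. Of the 13 effectors of cyclic AMP and genes of the CREB family, Camk2d, the main heart isoform of the calmodulin-dependent kinase II, had −1.28, −1.43 and −1.34 in OLETF and −1.20, −0.32 and −0.67 in LETO. Its difference was −0.62 (adjusted p = 0.26), and −0.86 (adjusted p = 0.0292) without LETO 1. A dimmer probe of Camk2d gave −0.36, and the mean of its probes gave −0.49. The pacemaker channel gene Hcn2 had −0.25 (adjusted p = 0.448).

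The genes that make, take up and break down catecholamines gave 0 calls among 12, with 2 at an unadjusted p below 0.05. Ddc, which makes dopamine in the path to noradrenaline, had 0.66, 0.72 and 0.92 in OLETF and 1.20, 1.45 and 1.69 in LETO, without overlap. Its difference of −0.68 had an adjusted p of 0.0668, and its dimmer probe gave −0.87 with an adjusted p of 0.0171 over all probes. The first of these passed without LETO 1, at −0.80 (adjusted p = 0.0312), with normexp and quantile normalization (0.0392), with the mean of the probes (0.0251) and with trend and robust estimation (0.0259). Maoa, which oxidises noradrenaline, had 4.78, 4.46 and 4.76 in OLETF and 4.54, 3.53 and 3.17 in LETO, and LETO 1 reached into the OLETF range. The difference of 0.92 had an adjusted p of 0.291, and without LETO 1 it was 1.32 (adjusted p = 0.0178). Th, the first enzyme of catecholamine synthesis, had 1.05, 1.23 and 1.06 in OLETF and 1.46, 1.11 and 1.17 in LETO, with a difference of −0.14 (adjusted p = 0.806). Of 9 markers of sympathetic neurons Phox2a, Chga, Chgb and Stmn2 were above background on no array, and the 5 tested gave 0 calls, with 4 of them negative. Prph, an intermediate filament protein of peripheral neurons, had −2.23, −2.33 and −2.59 in OLETF and −1.59, −1.81 and −1.90 in LETO, without overlap, and its difference of −0.62 had an adjusted p of 0.0671. The summed signal of the 9 markers, as log2, lay between 1.57 and 1.73 in OLETF and between 1.67 and 2.02 in LETO, and its part in the Ddc values was not tested. Th made up most of this sum.

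**Figure D4:**
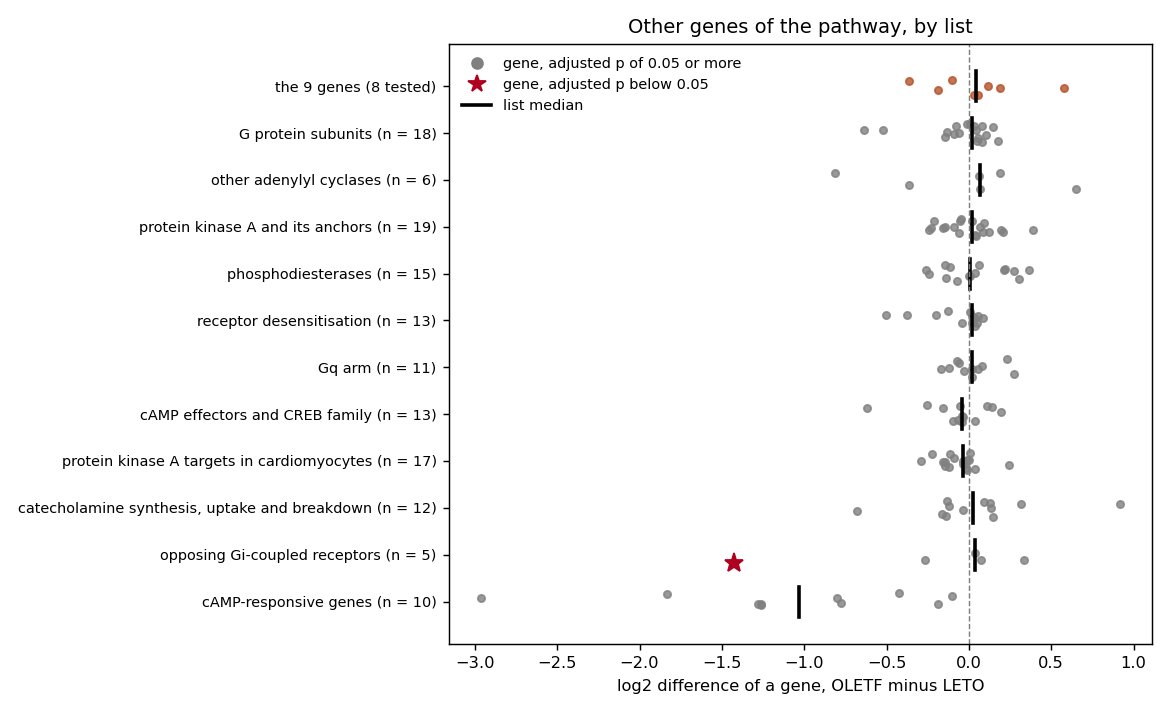
Log2 difference, OLETF minus LETO, of every tested gene in the 9 genes (top row) and in 11 groups of other pathway genes, with the median of each group as a bar and a star for the gene with an adjusted p below 0.05. The star is Npr3 at −1.43, and the cyclic AMP-responsive genes in the bottom row all lie left of 0 with a median of −1.03.

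Genes that respond to cyclic AMP, most of which are early genes that many other stimuli also switch on, were negative for 10 of 10 tested, with a median of −1.03. None was called, and 6 of the 10 had an unadjusted p below 0.05, against 12.4% of all genes. Nr4a3, a nuclear receptor, had −0.13, −3.24 and −2.10 in OLETF and 1.48, 0.61 and 1.33 in LETO, and the difference of −2.96 had an adjusted p of 0.101, while another probe gave −0.84. Without OLETF 1 it was −3.81 (adjusted p = 0.0129), with the replicate block it kept its size (adjusted p = 0.0409), and in the fit that blocks on slide it was −1.27 (adjusted p = 0.626). Fos, a subunit of the AP-1 factor, had 1.77, −0.28 and 0.98 in OLETF and 3.25, 2.52 and 2.20 in LETO, a difference of −1.83 (adjusted p = 0.156). It was −0.88 with slide as a block (adjusted p = 0.936) and −2.25 with age as a covariate (adjusted p = 0.0205). Within OLETF the rats differed by several fold, with OLETF 1 highest and OLETF 2 lowest for both genes.

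Bace1, a membrane protease, was the gene whose pattern over the 6 arrays came closest to that of Adrb1, with a root mean square difference of 0.043 between centred log2 values. A transcript known only by its probe, A_64_P037068, followed with 0.054 and the endopeptidase Ecel1 with 0.061, among 18063 genes above background on all arrays. Bace1 had −4.28, −3.86 and −3.98 in OLETF and −3.58, −3.84 and −3.73 in LETO, and its OLETF arrays lay just below its LETO arrays, without the overlap seen for Adrb1. With 6 arrays a likeness of this kind describes the libraries only.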

How the data were processed

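Ventricular RNA of 3 OLETF and 3 LETO rats was labelled with Cy3 and hybridised to Agilent Rat GE 4x44K v3 arrays, 1 array per rat, per the labels. Groups, ages and replicate numbers came from the labels, with numbers from the titles; LETO 2 is called replicate 1 in its source name, and the numbers in the LETO file names differ from the titles. The deposited scanner files hold linear intensity, background-subtracted and detrended by Agilent Feature Extraction 10.7.3.1 per the file headers, and by version 9.1 per the submitters' processing notes. The deposited value table holds the same intensity divided by a constant per array.

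From there, log2 of the processed signal minus the 75th percentile of each array over non-control probes was taken from the deposited intensity. Spots with an outlier flag (260 to 356 of an array) were dropped, and 17 probes with them. Repeat spots were averaged. Testing required at least 50% of the spots of a probe to be well above background on every array of 1 strain or of both, as held for 21484 of 30367 probes, and the brightest stood for its gene. Differences were tested with limma 3.58.1 (lmFit, eBayes) in R 4.3.3 and the data.table package, version 1.17.8, with Benjamini-Hochberg adjustment over all 18816 genes at 0.05; the scripts were tested on simulated data. Figures were drawn with matplotlib 3.10.9 in Python 3.11.15. Precision is limited by the number of arrays.

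The members, lists and tests were chosen with earlier results of these data known. The text names the 9 genes and the 3 genes nearest Adrb1. In each other list it names the called genes or, with none called, the 2 furthest from 0. Of each cell type it names up to 2 defining markers, and more for atrial muscle, smooth muscle and sympathetic neurons. An item that this rule takes is not reported here. Sequences and positions are those of the array files (rn4); the RefSeq table gave names only. The alternatives covered normalization, background, probe filters, probe choice, variance estimation, slide or replicate number as a block, age, and leaving out each array.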

Additional observations from a re-analysis of the deposited data

How the results depend on the processing

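Of 18816 genes 480 were called, and 240 of 26442 were with no filter on dim probes, and of 18816 again 105 with slide as a block and 301 with a replicate block; leaving out 1 array gave 216 to 614. Of the 9 genes 0 were called, and 1 was, Adcy5, with normexp and quantile normalization, with trend and robust estimation and with age as a covariate; leaving out 1 array gave 0 to 1, the 1 without LETO 1. Of the other pathway genes 1 was called, Npr3, and 1 with quantile normalization, when it was Adcy10 instead, against 0 with no filter and with slide as a block, 2 with the mean of all probes, 3 with normexp, with trend and robust estimation and with the replicate block, and 4 with age; leaving out 1 array gave 0 to 4. Adra1d turned to 0.27 with slide as a block, and leaving out 1 array gave −0.58 to 0.15, with 0.018 without OLETF 2 and 0.15 without LETO 2. Gnas turned to −0.16 with the mean of its probes, −0.0074 with slide as a block, −0.0050 without OLETF 2 and −0.11 without LETO 1; leaving out 1 array gave −0.11 to 0.12, and its other probe was at −0.35. Adrbk1 turned to −0.033 without LETO 2 and −0.0032 without LETO 3, in a range of −0.033 to 0.20, and Prkcd to −0.25 with slide as a block. The cause was not tested in any of these. Replicate numbers did not pair the rats, as the deviations of rats with the same number correlated at −0.09, −0.14 and −0.01. The 75th percentile over spots in place of probes was added after seeing the data. The median of all genes lay between −0.030 and 0.010 over the alternatives. Dim probes, such as those of Adrb3, Adcy3 and Adcy10, lie near the background, and Adrb3 has no measured difference.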
